A study of Mus musculus with 24 samples.

Results

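The genes described here are 40 mouse genes of the interferon response and of antigen presentation on major histocompatibility complex (MHC) class I, taken by symbol from a count table of 52178 genes measured by RNA sequencing in cartilage explants. Each of the 40 symbols matched 1 row of the table. By role they comprised 4 membrane proteins that block virus entry or release, 4 signalling and transcription factors, 9 sensors of foreign nucleic acid and 2-5A synthetases, 10 IFIT, MX and other antiviral effectors, 3 genes of the ISG15 system, 3 guanylate-binding proteins with the chemokine gene Cxcl10, and 6 genes of class I presentation. In resting metatarsal explants most of these genes were expressed well above their level in hip caps: without pressure 32 of 40 were significantly lower in hip caps and none was significantly higher. Over all genes tested 16.4% were lower and 14.6% higher. Isg15, for example, averaged 0.314 ± 0.0530 CPM (SD, n = 3) in unpressurised hip caps and 18.4 ± 8.20 CPM (SD, n = 4) in unpressurised metatarsals, whereas the class I gene H2-D1 averaged 60.8 ± 15.4 CPM and 52.003 ± 15.0 CPM. The hip cap values of Isg15 came from few counts, so their SD is a poor measure of how far hip caps vary. After hydrostatic pressure of 50 MPa, 2 of the 40 genes, B2m and Ifitm3, were significantly higher in hip caps, as were 3.51% of all genes tested. Those calls rested on single libraries. In metatarsals none of the 40 changed significantly, nor did any other gene tested.

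Interferons are secreted proteins that warn cells of infection. Type I interferons bind a receptor whose kinases phosphorylate transcription factors, Stat2 among them. Stat2 and Irf9 are parts of a complex that binds the interferon-stimulated response element (ISRE) in the promoters of target genes. Interferon gamma acts through its own receptor, and its target genes carry the gamma-activated site (GAS). The induced genes encode sensors, enzymes and membrane proteins that hinder viruses, and also the machinery that cuts proteins into peptides, carries them into the endoplasmic reticulum and displays them on MHC class I molecules, whose light chain is B2m. Nearly all nucleated cells, chondrocytes included, can carry out this response.

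The samples were hip caps, the avulsed femoral heads of male C57/BL6J mice aged 4 weeks, and metatarsals of C57/BL6J embryos at embryonic day 15. The hip cap is used as a model of articular cartilage and the metatarsal as a model of the growth plate. Each hip cap library pooled 2 explants of 1 mouse and each metatarsal library pooled 6 bones, whose litters are not given, so that p-values there may measure only the spread between pools. Explants of both kinds were cultured for 24 hours, held in a syringe in a water-filled vessel at 0 MPa (control), 5 MPa (termed physiological) or 50 MPa (termed injurious) for 1 hour, and cultured for a further 24 hours before RNA was taken. There were 4 libraries in each of the 6 groups, 24 in all, and no group carried a genetic change or drug. Tissue, age and culture medium differed together, and hip caps were all male while the sex of the embryos is not given. A difference between hip caps and metatarsals therefore cannot be assigned to any of these. Nor can it be told apart from a difference in how many cells of a type the explants held. Below, libraries are named by tissue, pressure and replicate number.

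The libraries held 4185241 to 25104240 estimated counts. The paper states that RNA integrity fell short of the ideal in its samples and proposes partial degradation of the RNA. Hip cap control 4 and hip cap 50 MPa 2 were left out of the fits. The authors also set those libraries aside, as they stood apart on clustering. The 22 others gave the counts of calls below, and values of the 2 are printed beside results they touch. The sequencing run and the library type (stranded or unstranded) were terms of the fit. The run is not in the labels. It was read from a figure of the study and is uncertain. The 3 hip cap controls used were all of run 1. The 4 hip caps at 5 MPa were all of run 2 and stranded, and the 3 hip caps at 50 MPa all of run 1 and unstranded. In hip caps run therefore cannot be told apart from 5 MPa, nor library type fully from pressure. Run varied within a group only in metatarsals, so the run term of the fit, applied to hip caps too, rested on metatarsals. Only 1 of 4 metatarsal controls and 1 of 4 metatarsals at 50 MPa were of run 1. At those pressures run cannot be fully told apart from tissue, nor can library type at 50 MPa. Both tissues at 5 MPa were of run 2 and stranded throughout. Levels are given as CPM, counts scaled to an effective library size. Summed over 16 chondrocyte markers, hip caps in the fits had 24231 to 84375 CPM and metatarsals 2389.8 to 5812 CPM. Macrophage markers summed to 122 to 823 against 95.4 to 172 CPM. Most of the hip cap sum was Lyz2 in controls, the 14 other macrophage markers gave 43.2 to 86.2 CPM in hip cap controls and 79.0 to 93.9 CPM in metatarsal controls, and of all 15 only 4 had a positive log2 fold change there, with 1 called higher and 1 lower. Fibroblast and perichondrium markers summed to 2618 to 10428 CPM in hip caps against 6079 to 9610.2 CPM in metatarsals, and 9 of 12 were called lower and 1 higher in hip cap controls. Osteoclast markers summed to 319 to 1672 against 36.3 to 77.2, and skeletal muscle markers to 32.3 to 82.7 against 454 to 2548. Other cells than chondrocytes were thus represented in both explants.

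The promoters of 6 of the genes are shown because they span what was measured: Isg15 and Ifit1 differed strongly between tissues, Ifitm3 and B2m were the genes called at 50 MPa in hip caps, and Irf1 and H2-D1 were not called between the control tissues. The RefSeq promoter table of build GRCm38.p6 held windows, 250 bases before to 50 after a start site, for 33 of the 40 genes. It lacked Mx1, Mx2, Oas2, Parp14, Rtp4, Usp18 and Zbp1. From those windows the 150 bases before and 30 after the start are printed 5′ to 3′ on the strand of the gene. Isg15 is at chr4:156200789-156200968 (minus strand), Ifit1 at chr19:34640739-34640918 (plus strand), Ifitm3 at chr7:141010715-141010894 (minus strand), B2m at chr2:122147537-122147716 (plus strand), Irf1 at chr11:53769864-53770043 (plus strand) and H2-D1 at chr17:35262944-35263123 (plus strand). Capitals mark matches on either strand to the ISRE core GAAANNGAAA or to the GAS letters TTCNNNGAA.
Isg15: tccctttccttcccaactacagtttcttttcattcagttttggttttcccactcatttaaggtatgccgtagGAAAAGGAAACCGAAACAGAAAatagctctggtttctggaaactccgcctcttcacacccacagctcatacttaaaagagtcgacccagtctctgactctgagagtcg
Ifit1: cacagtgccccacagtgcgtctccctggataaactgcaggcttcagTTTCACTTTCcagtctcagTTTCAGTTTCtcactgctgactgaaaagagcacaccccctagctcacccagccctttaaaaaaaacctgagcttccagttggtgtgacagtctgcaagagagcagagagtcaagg
Ifitm3: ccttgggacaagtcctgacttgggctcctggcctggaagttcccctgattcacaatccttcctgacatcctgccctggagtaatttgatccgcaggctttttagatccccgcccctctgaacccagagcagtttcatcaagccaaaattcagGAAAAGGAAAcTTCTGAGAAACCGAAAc
B2m: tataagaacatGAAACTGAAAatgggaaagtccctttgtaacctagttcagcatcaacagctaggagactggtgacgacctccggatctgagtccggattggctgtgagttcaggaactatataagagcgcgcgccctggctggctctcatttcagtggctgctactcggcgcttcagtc
Irf1: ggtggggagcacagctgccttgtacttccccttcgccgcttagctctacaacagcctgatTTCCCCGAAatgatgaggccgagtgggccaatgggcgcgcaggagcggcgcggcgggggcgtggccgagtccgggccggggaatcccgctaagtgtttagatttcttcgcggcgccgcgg
H2-D1: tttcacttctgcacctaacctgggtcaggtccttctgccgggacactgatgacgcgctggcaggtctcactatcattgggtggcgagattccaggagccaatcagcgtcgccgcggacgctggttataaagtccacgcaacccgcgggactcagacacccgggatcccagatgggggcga

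Isg15 held 3 overlapping ISRE cores between positions -78 and -57 from the start. Ifit1 held 2 on the opposite strand, from -104 to -95 and from -85 to -76. In Ifitm3 both cores lay after the start, from 3 to 12 and from 20 to 29, with GAS letters from 14 to 22 that overlapped the second. B2m had 1 core from -139 to -130, Irf1 had GAS letters from -90 to -82 and no core, and the H2-D1 stretch had neither. Over the whole windows the ISRE core was in 18 of the 33 genes, against 3.99% of all 27025 genes in the table, and the GAS letters were in 8 of 33, against 9.55% of all genes. By role the core was in 4 of 4 guanylate-binding protein and chemokine genes, 3 of 4 membrane factors, 5 of 7 sensors and synthetases with a window, 3 of 6 effectors, 1 of 4 signalling and transcription factors (Stat2), 1 of 2 genes of the ISG15 system (Isg15), and 1 of 6 class I genes (B2m). A match describes these letters and is not a measured binding site.

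**Figure D1:**
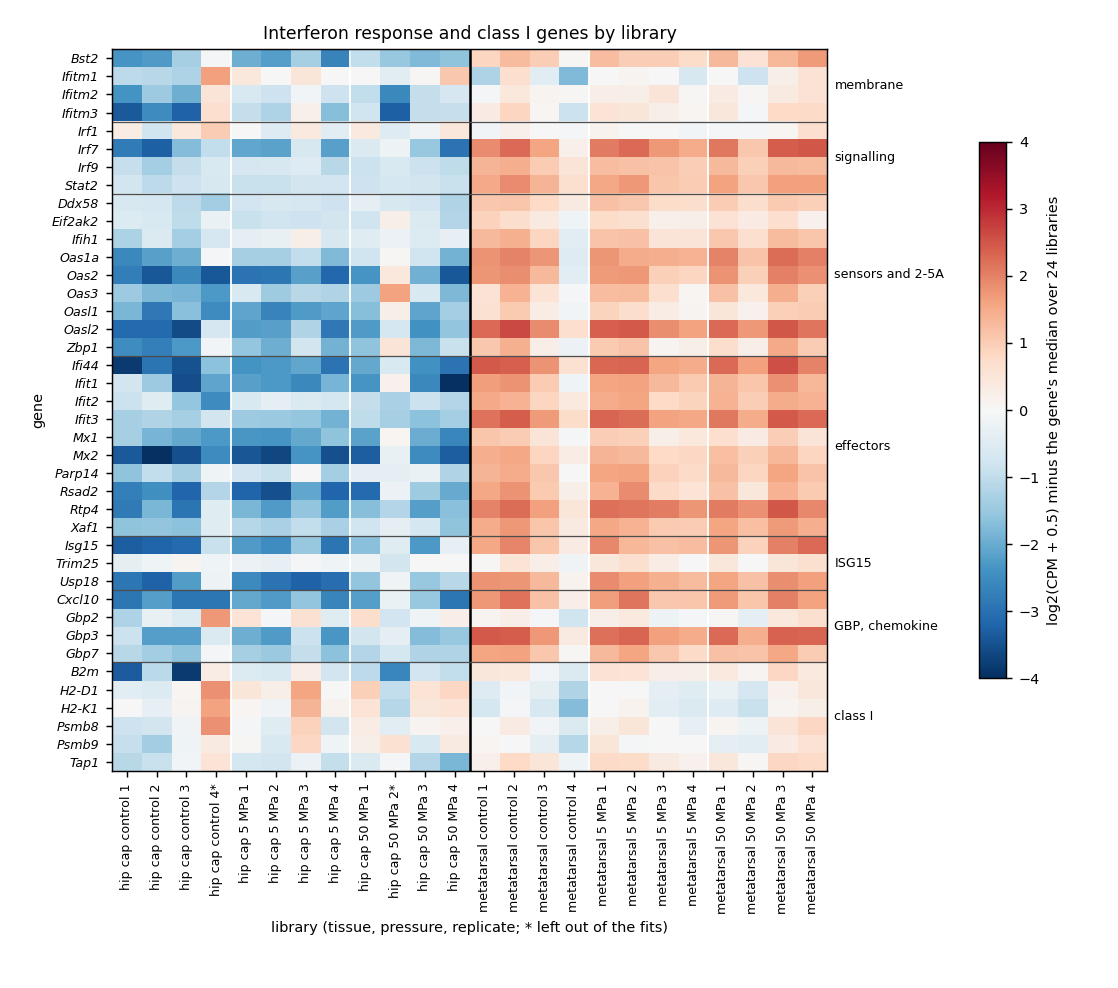
Level of each of the 40 genes (rows, by role) in each of the 24 libraries (columns; an asterisk marks the 2 left out of the fits), as log2(CPM + 0.5) minus the gene's median over the libraries. Most rows are blue in hip caps and red in metatarsals, whereas H2-D1, H2-K1, Psmb8, Psmb9, Irf1, Gbp2 and Ifitm1 show no such split, and metatarsal control 4 is paler than the other metatarsals.

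The first comparison asked how hip cap and metatarsal explants differ at rest. In controls 32 of the 40 genes were lower in hip caps, where 16.4% of the 21283 genes tested were called lower, and none was higher, where 14.6% of all genes were. The median log2 fold change of the 40 was -3.01, against -0.08 over all genes tested. For 31 of the 40 each hip cap control in the fit lay below each metatarsal control, which held for 22.7% of all genes. The 8 genes not called were Ifitm1, Irf1, Trim25, Gbp2, Psmb8, Psmb9, H2-K1 and H2-D1. At 5 MPa 32 genes were lower in hip caps (19.2% of all genes tested) and 1, H2-D1, was higher (18.9%). At 50 MPa 31 were lower (9.87%) and none higher (10.6%). The groups did not overlap, with hip caps below, for 31 genes at 5 MPa (21.5% of all genes) and for 32 at 50 MPa (21.4%). Lower calls at all 3 pressures were shared by 30 genes, and 7 genes were called lower at none: Gbp2, H2-D1, H2-K1, Ifitm1, Irf1, Psmb8 and Psmb9.

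The 5 MPa groups fitted alone, all of 1 run and 1 library type, gave 33 genes lower and 1 higher. With all 24 libraries in the fit 28 genes were lower and 1 higher in controls. The shares of all genes called in these other fits are not given here. Leaving out metatarsal control 1 left 28 calls in controls, and leaving out metatarsal 50 MPa 4, the only metatarsal of its pressure in run 1 and unstranded, left 15 at 50 MPa. All 40 genes passed the filter on low counts, some of them through their metatarsal values: Mx2 had 3 counts and Cxcl10 had 2 over the 3 hip cap controls together, so their fitted fold changes depend on the prior count.

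**Figure D2:**
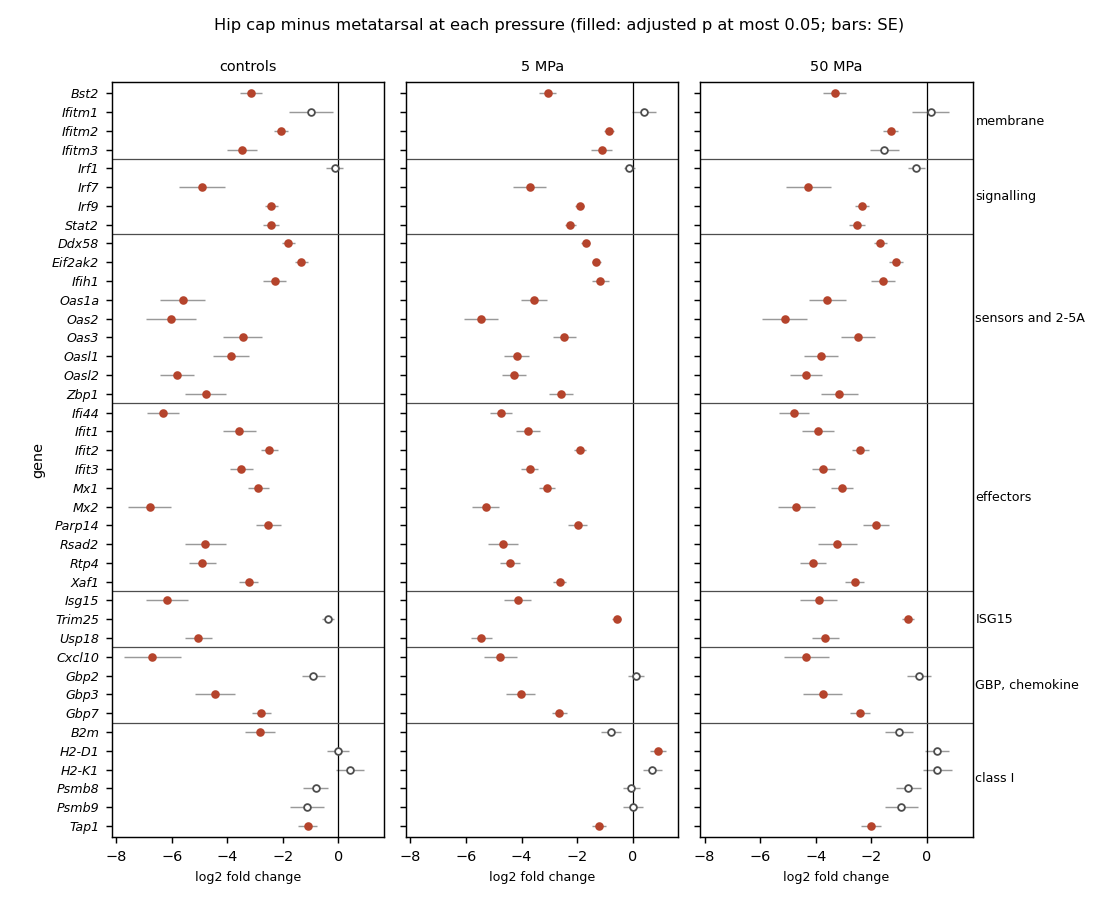
Log2 fold change of hip cap over metatarsal (horizontal axis) for each of the 40 genes in controls, at 5 MPa and at 50 MPa, with bars of 1 SE; filled points had an adjusted p at or below 0.05. The points of the sensors, effectors and guanylate-binding proteins lie left of 0 in all panels except Gbp2, and those of H2-D1 and H2-K1 lie at or right of 0.

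Among the signalling and transcription factors, Irf7, which drives the amplification of type I interferon production, had 1.05, 0.617 and 2.77 CPM in the hip cap controls and 39.3, 51.8, 31.8 and 11.9 CPM in the metatarsal controls. The ranges were far apart (log2 fold change -4.90, SE 0.82, adjusted p = 0.00032). Stat2, a transcription factor that the type I interferon receptor activates, had 15.8, 12.6 and 14.8 CPM in hip caps and 76.6, 99.05, 68.7 and 41.8 CPM in metatarsals (log2 fold change -2.43, SE 0.28, adjusted p = 1.5e-06). It varied little among hip caps, with 14.01 to 15.9 CPM at 5 MPa and 14.1 to 15.7 CPM at 50 MPa. Irf9, the DNA-binding part of the same complex, was lower in hip caps at each pressure, with log2 fold changes of -2.42 in controls, -1.91 at 5 MPa and -2.33 at 50 MPa. Irf1, a transcription factor that interferon gamma induces, was not called. It had 22.9, 10.5 and 25.3 CPM in hip cap controls and 17.1, 21.6, 18.1 and 17.6 CPM in metatarsal controls, the ranges overlapped, and the difference was not significant (log2 fold change -0.14, SE 0.30, adjusted p = 0.76).

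All 9 sensors and 2-5A synthetases were lower in hip caps at each of the 3 pressures. The difference was smallest in controls for Eif2ak2, the kinase PKR that halts translation on double-stranded RNA, with 28.7, 27.1 and 20.5 CPM in hip caps and 80.5, 69.1, 53.4 and 37.3 CPM in metatarsals (log2 fold change -1.34, SE 0.23, adjusted p = 0.00017). Ddx58, which encodes the RNA sensor RIG-I, had 22.1, 21.4 and 16.4 against 73.1, 74.8, 61.2 and 44.8 CPM (log2 fold change -1.80, SE 0.23, adjusted p = 5.3e-06). Its hip cap levels thus stayed well above 0, unlike those of the synthetases, which make the 2-5A messenger. Oasl2, a synthetase-like protein, had 1.84, 1.85 and 1.20 CPM in hip cap controls and 97.0, 125, 74.3 and 31.9 CPM in metatarsal controls (log2 fold change -5.80, SE 0.61, adjusted p = 2.4e-06). Oas1a had 4 counts over the 3 hip cap controls and 464 over the 4 metatarsal controls, a ratio of 43.7 with an exact 95% interval for counting error of 16.9 to 161. Of the 31-base words of Oas1a transcripts 68.8% also occur in other genes, chiefly Oas1g, so its counts may be split between copies. Oas2 (log2 fold change -6.04), Zbp1, a sensor of Z-form nucleic acid (-4.78), Oasl1 (-3.86), Oas3 (-3.45) and Ifih1, which encodes the RNA sensor MDA5 (-2.29), completed the group in controls. The 3 hip cap controls together held 5 counts of Oas2, 6 of Zbp1, 9 of Oasl1 and 7 of Oas3, so those folds are loosely set. The ratio of Oas3 was 13.2 with a counting interval of 6.32 to 33.2.

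The 10 effectors were also lower in hip caps at every pressure. Ifi44, an interferon-induced protein, had 0.263, 0.925 and 0.461 CPM in hip cap controls and 59.3, 56.9, 37.1 and 15.9 CPM in metatarsal controls (log2 fold change -6.32, SE 0.58, adjusted p = 3.6e-07). Its hip cap values came from few counts, so that fold is loosely set. Ifit1, which binds viral RNA that lacks cap methylation, had 10.8, 6.47 and 1.11 CPM in hip caps, a wide spread, and 59.3, 65.2, 37.7 and 16.4 CPM in metatarsals (log2 fold change -3.56, SE 0.59, adjusted p = 0.00022). Both were also lower at 5 MPa, where the log2 fold change was -4.74 for Ifi44 and -3.77 for Ifit1. Ifit3 had 5.00, 5.40 and 4.98 against 61.0, 72.5, 43.7 and 22.4 CPM (log2 fold change -3.50, SE 0.41, adjusted p = 3.5e-06), and 61.8% of its 31-base words also occur elsewhere, chiefly in Ifit3b. Mx2, a dynamin-like antiviral GTPase, had 3 counts in the hip cap controls together and 925 in the metatarsal controls, a ratio of 116 with a counting interval of 39.58 to 564. Its relative Mx1 had 2.90, 1.85 and 1.57 CPM in hip caps and 18.0, 16.6, 11.8 and 7.63 CPM in metatarsals (log2 fold change -2.88, SE 0.38, adjusted p = 8.1e-06). The other members had log2 fold changes in controls of -4.89 for Rtp4, -4.79 for Rsad2 (viperin), -3.23 for Xaf1, -2.52 for Parp14 and -2.49 for Ifit2.

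Isg15, a ubiquitin-like protein that is coupled to other proteins during the response, had 0.263, 0.308 and 0.369 CPM in hip cap controls and 21.1, 28.2, 15.5 and 8.90 CPM in metatarsal controls. Each metatarsal thus lay far above each hip cap (log2 fold change -6.17, SE 0.76, adjusted p = 7.1e-06). The hip cap values came from few counts (0.263 CPM in hip cap control 1 was 1 count), so that fold is loosely set. Usp18, the protease that removes Isg15 and dampens receptor signalling, had 0.527, 0.308 and 1.11 against 25.8, 25.1, 18.0 and 7.85 CPM (log2 fold change -5.04, SE 0.50, adjusted p = 3.4e-07). Trim25, a ubiquitin ligase that acts with RIG-I, had 29.8, 33.8 and 41.7 and 39.5, 56.8, 46.3 and 34.5 CPM, with overlapping ranges and no significant difference in controls (log2 fold change -0.37, SE 0.21, adjusted p = 0.20). At 5 MPa Trim25 was lower in hip caps by a small step (log2 fold change -0.58, SE 0.15, adjusted p = 0.0052), a call that was lost without metatarsal 5 MPa 2. Its call at 50 MPa was lost without hip cap control 3, hip cap 50 MPa 1 or metatarsal 50 MPa 4 and without a filter on low counts.

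Of the guanylate-binding proteins, GTPases that attack the vacuoles of intracellular microbes, and the chemokine gene, 3 of 4 were lower in hip caps at each pressure. Gbp3 had 3.16, 0.925 and 0.922 CPM in hip cap controls and 35.6, 34.8, 21.6 and 7.93 CPM in metatarsal controls (log2 fold change -4.43, SE 0.72, adjusted p = 0.00019). Gbp7 had 7.11, 5.70 and 4.80 and 48.4, 49.3, 33.6 and 16.5 CPM (log2 fold change -2.77, SE 0.34, adjusted p = 4.6e-06). Gbp2 was the exception, with 4.48, 9.10 and 7.47 and 12.2, 13.7, 10.7 and 6.21 CPM in controls and an adjusted p of 0.10. At 5 MPa the log2 fold change of Gbp2 was 0.13 (SE 0.28). Cxcl10, the chemokine that attracts activated T cells, had 2 counts in the hip cap controls together and 579 in the metatarsal controls, a ratio of 109 with a counting interval of 30.0 to 902.

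Of the membrane factors, Bst2 (tetherin), which holds budding virus at the cell surface, had 3.69, 4.01 and 8.02 CPM in hip cap controls and 38.8, 50.9, 41.7 and 21.8 CPM in metatarsal controls (log2 fold change -3.15, SE 0.41, adjusted p = 1.1e-05). Its log2 fold change was -3.06 at 5 MPa and -3.31 at 50 MPa. Ifitm3, which blocks virus entry from endosomes, had 6.32, 11.9 and 7.01 against 87.3, 128, 73.9 and 38.4 CPM in controls (log2 fold change -3.47, SE 0.54, adjusted p = 0.00012). At 5 MPa Ifitm3 was also lower in hip caps, with 35.9, 29.1, 79.5 and 21.2 CPM in hip caps and 103, 98.5, 82.8 and 74.3 CPM in metatarsals (log2 fold change -1.11, SE 0.38, adjusted p = 0.028). Ifitm2 was lower in hip caps at each pressure, with log2 fold changes of -2.07 in controls, -0.85 at 5 MPa and -1.31 at 50 MPa, and 55.5% of its 31-base words also occur in other genes. The Ifitm3 and Ifitm2 differences in controls and at 5 MPa did not pass with all 24 libraries in the fit, nor did that of Ifitm2 at 50 MPa. At 5 MPa the Ifitm3 call was also lost without a filter on low counts and without hip cap 5 MPa 1, 2 or 4 or metatarsal 5 MPa 1 or 2, and at 50 MPa that of Ifitm2 was lost without metatarsal 50 MPa 4. Hip cap control 4 had 111 CPM of Ifitm3 and 109.8 CPM of Ifitm2. Ifitm1 had 1.32, 1.23 and 1.11 CPM in hip caps and 1.11, 5.55, 2.27 and 0.598 CPM in metatarsals and did not differ significantly (log2 fold change -0.98, SE 0.79, adjusted p = 0.38).

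Of the 6 class I genes 2 were lower in hip caps in controls, 1 was lower and 1 higher at 5 MPa, and 1 was lower at 50 MPa. The class I heavy chain gene H2-D1 had 53.5, 50.4 and 78.5 CPM in hip cap controls and 51.2, 67.9, 56.9 and 32.0 CPM in metatarsal controls, which overlapped (log2 fold change -0.02, SE 0.40, adjusted p = 0.98). At 5 MPa it had 103, 88.0, 220.3 and 74.7 CPM in hip caps and 73.4, 74.6, 56.8 and 52.99 CPM in metatarsals, so that the lowest hip cap was just above the highest metatarsal (log2 fold change 0.92, SE 0.29, adjusted p = 0.017). That call was lost without hip cap 5 MPa 3, the highest library, and with all 24 libraries in the fit. H2-K1 had 58.5, 45.2 and 61.6 and 35.2, 54.5, 36.6 and 16.9 CPM in controls (log2 fold change 0.41, SE 0.49, adjusted p = 0.56). At 50 MPa each hip cap in the fit lay above each metatarsal for H2-K1 and H2-D1, as it did for 18.4% of all genes, but neither difference was significant there. Non-overlap above metatarsals at 5 MPa held for H2-D1 alone among the 40 and for 19.2% of all genes. H2-D1 shares 26.9% and H2-K1 22.8% of 31-base words with other genes, each most with the other.

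The light chain gene B2m was lower in hip cap controls, with 17.4, 84.8 and 12.1 CPM against 244, 241, 167 and 119 CPM (log2 fold change -2.82, SE 0.52, adjusted p = 0.00059). Hip cap control 2 was far above the other controls, and hip cap control 4 had 219 CPM, within the metatarsal range. The difference did not pass with all 24 libraries, nor at 5 MPa (log2 fold change -0.77, SE 0.37, adjusted p = 0.11). Tap1, which carries peptides into the endoplasmic reticulum, had 5.79, 6.78 and 12.2 CPM in hip cap controls and 15.2, 23.4, 18.6 and 11.52 CPM in metatarsal controls (log2 fold change -1.11, SE 0.35, adjusted p = 0.021). The call for Tap1 in controls was lost without hip cap control 1, hip cap control 3, metatarsal control 1 or metatarsal 50 MPa 4. At 5 MPa Tap1 was also lower in hip caps (log2 fold change -1.21, SE 0.25, adjusted p = 0.00064). The immunoproteasome subunit Psmb8 had 3.42, 3.70 and 5.81 and 6.49, 8.19, 5.92 and 4.11 CPM, and its log2 fold change was -0.82 in controls, -0.05 at 5 MPa and -0.67 at 50 MPa. Psmb9, its partner, gave -1.13 in controls, 0.01 at 5 MPa and -0.91 at 50 MPa. Neither subunit passed the test at any pressure.

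**Figure D3:**
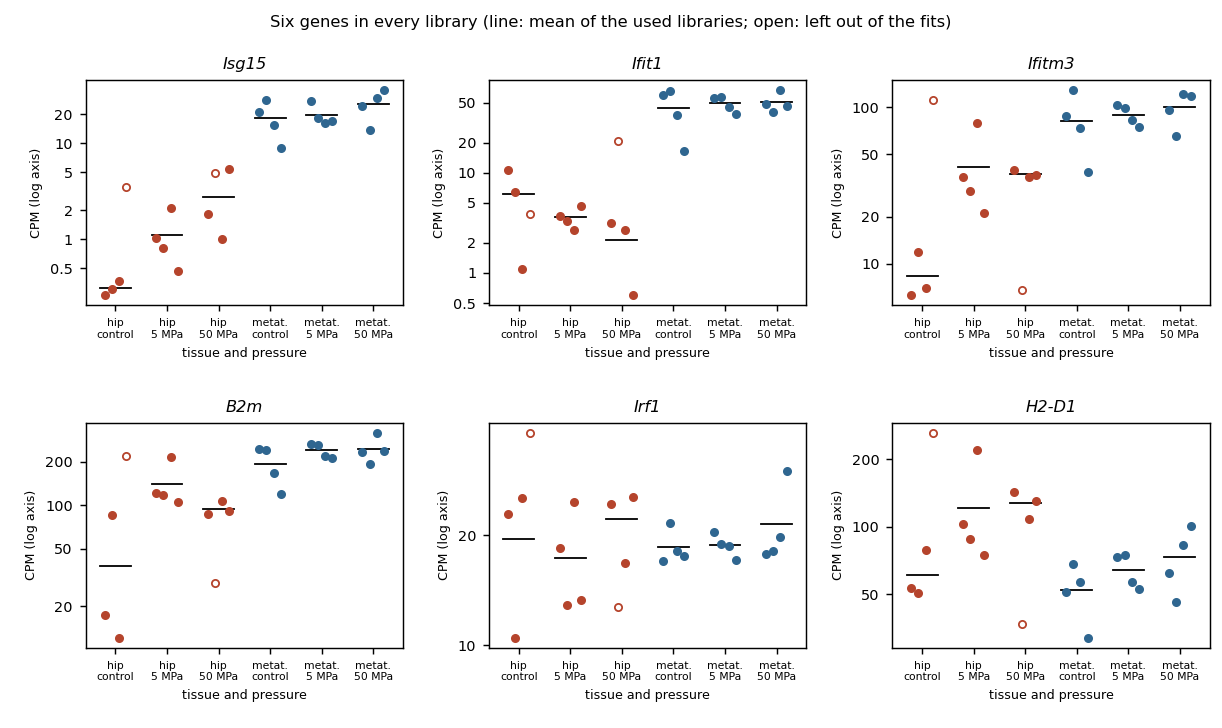
CPM on a log axis of Isg15, Ifit1, Ifitm3, B2m, Irf1 and H2-D1 in each library, by tissue and pressure; lines are means of the libraries in the fits and open points are the 2 left out. Isg15 and Ifit1 are separated by tissue, except that the left-out hip cap 50 MPa library overlaps the lowest metatarsal for Ifit1, whereas Irf1 and H2-D1 overlap in controls. Ifitm3 in the left-out hip cap control has 111 CPM.

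Within the metatarsals the 40 genes varied together from library to library. Metatarsal control 4 had the lowest value of the 4 controls for 38 of 40 genes, where 25.8% of all genes tested were lowest in that library, and for the same number of the 40 it was the lowest of all 12 metatarsals (11.8% of all genes). Metatarsal control 2 was the highest control for 32 of 40 genes (21.7% of all genes). At 5 MPa metatarsal 4 was lowest for 31 of 40 (20.6%) and at 50 MPa metatarsal 2 was lowest for 36 of 40 (22.5%). Summed over the 40 genes, the controls had 1623, 1889, 1298 and 774 CPM. The 5 MPa libraries had 1768, 1783, 1365 and 1235 CPM and the 50 MPa libraries 1624, 1202, 1954 and 1771 CPM. The lowest and highest library of a pressure were thus further apart than the means of the 3 pressures, which were 1396 CPM in controls, 1538 CPM at 5 MPa and 1637 CPM at 50 MPa. Stat2, for example, had 41.8 CPM in metatarsal control 4 and 99.05 CPM in metatarsal control 2, and Oas1a had 1.57 and 11.2 CPM. Metatarsal control 4 also had the highest skeletal muscle marker sum of the metatarsals, 2548 CPM against 1023 to 1276 in the other controls. Its macrophage marker sum was 132 CPM, against 95.4 to 125. The part of either in the levels was not tested. Without that library 32 genes were still called lower in hip cap controls.

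Hip caps did not show the same order in controls, where the 40 genes had their lowest value 12, 12 and 16 times in controls 1, 2 and 3 (36.0%, 36.0% and 28.0% of all genes). At 5 MPa hip cap 3 was highest for 31 of 40 genes, where it was highest for 34.6% of all genes. Its summed level of the 40 genes was 1016 CPM, against 495 to 592 in the other hip caps at 5 MPa. The same library had the highest sums of macrophage markers (823 CPM against 139.9 to 249) and of neutrophil markers (198 against 12.3 to 44.9). It was also the highest of the 4 for fibroblast and perichondrium markers (10428 CPM against 2793 to 4848), endothelial markers (311 against 72.1 to 118) and osteoclast markers (1653 against 529 to 1088), and it had the lowest sum of chondrocyte markers. The part of those cells in its levels was not tested.

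**Figure D4:**
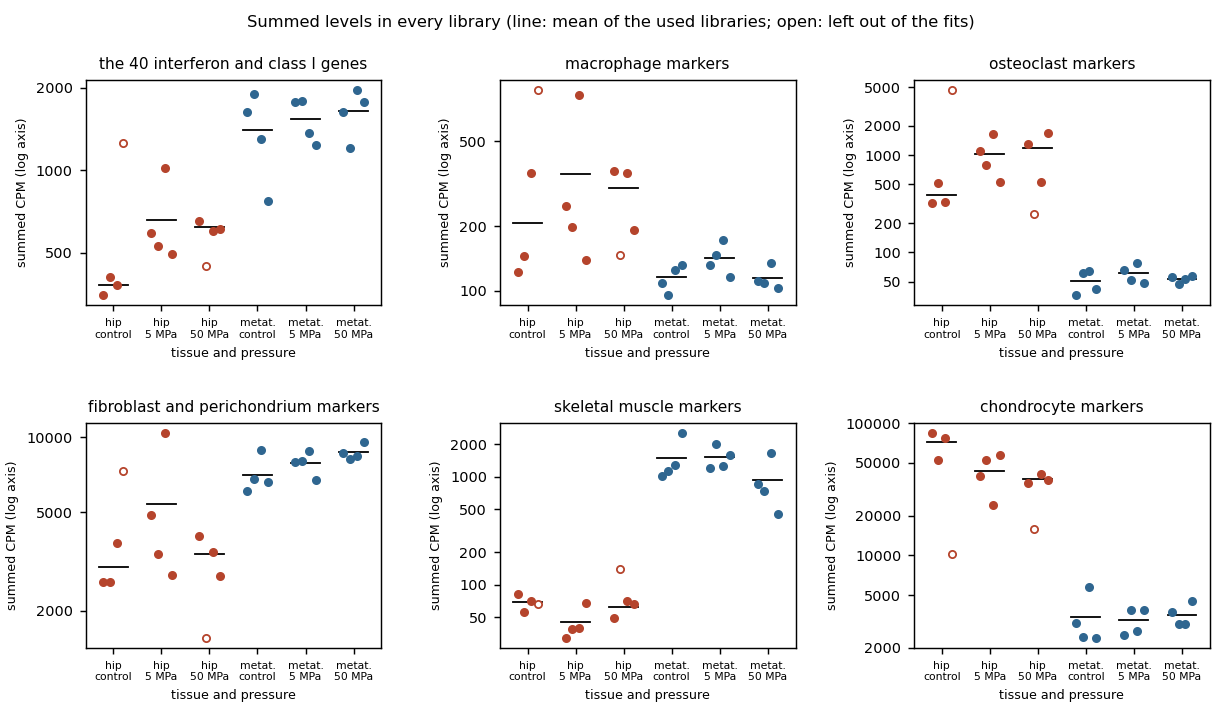
Summed CPM on a log axis of the 40 genes and of 5 marker lists in each library, by tissue and pressure; lines are means of the libraries in the fits and open points are the 2 left out. The 40 genes sum to 350.0 to 409 CPM in the hip cap controls of the fits and to 774 to 1889 in metatarsal controls, while osteoclast marker sums are higher in every hip cap of the fits than in any metatarsal and fibroblast and perichondrium sums are lower in all of these hip caps but 1 than in any metatarsal. Hip cap control 4 has 1252 CPM of the 40 genes.

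The second comparison asked whether physiological pressure changes expression in hip caps. At 5 MPa none of the 40 genes passed the test, where 0.0235% of all genes tested did. At an unadjusted p below 0.05 there were 13 of 40, or 32.5%, against 15.6% of all genes tested. The median log2 fold change was 0.85, against 0.01 over all genes. The 5 members with the smallest p were Ifitm2, B2m, Ifitm3, Gbp2 and H2-D1. Ifitm2 had 14.2, 27.9 and 19.6 CPM in controls and 49.8, 43.1, 70.9 and 43.2 CPM at 5 MPa (log2 fold change 1.34, SE 0.30, unadjusted p = 0.00027, adjusted p = 0.10). B2m had 17.4, 84.8 and 12.1 and 122, 117, 215 and 104 CPM (log2 fold change 2.60, SE 0.61, unadjusted p = 0.00051, adjusted p = 0.11). For Ifitm3 the values were 6.32, 11.9 and 7.01 and 35.9, 29.1, 79.5 and 21.2 CPM (log2 fold change 2.56, SE 0.61, unadjusted p = 0.00066, adjusted p = 0.12). All 3 had each 5 MPa library above each control in the fit. The unadjusted p was 0.012 for Gbp2, with a log2 fold change of 1.29, and 0.014 for H2-D1, with 1.24. Over the 40 genes, 10 had no overlap and were above control, as did 8.39% of all genes, and 1, Ifit3, was below, as were 7.86%. The paper, whose DESeq2 model also held run and library type, lists Ifitm3 among its most raised genes in hip caps at 5 MPa.

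Sequencing run, as read from the figure, bears on this comparison directly, since no control in the fit was of run 2. Hip cap control 4 was, and it was above each hip cap at 5 MPa for 25 of 40 genes, as for 31.7% of all genes tested, and below each for 6, as for 41.4%. It had 109.8 CPM of Ifitm2, 219 CPM of B2m and 111 CPM of Ifitm3. With all 24 libraries the log2 fold changes at 5 MPa turned to -0.13 for Ifitm2, -0.057 for Ifitm3, -0.48 for Gbp2 and -0.16 for H2-D1. Without run and library type in the fit 4 genes passed, by DESeq2 3 passed, and without hip cap control 2, the highest control of the fit for B2m and Ifitm3, 3 passed. Without hip cap 5 MPa 4, 2 passed. The shares of all genes passing in these other fits are not given here, so the counts are not read as a result about the 40.

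The third comparison asked the same of injurious pressure, against the same 3 controls. At 50 MPa 2 of the 40 genes were higher in hip caps than in controls, where 3.51% of all genes tested were, and none was lower, where 1.97% were. At an unadjusted p below 0.05 there were 12 of 40, or 30%, against 23.3% of all genes tested. The median log2 fold change was 0.89, against 0.02 over all genes. B2m had 86.2, 106 and 90.5 CPM at 50 MPa against 17.4, 84.8 and 12.1 CPM in controls (log2 fold change 2.54, SE 0.65, adjusted p = 0.034). Hip cap control 2 came close to the pressurised libraries, and controls 1 and 3 lay far below them. Ifitm3 had 39.5, 36.1 and 36.9 CPM against 6.32, 11.9 and 7.01 CPM, with a gap between the libraries in the fit and a narrow spread at 50 MPa (log2 fold change 2.26, SE 0.63, adjusted p = 0.047). The next smallest p-values were of Ifitm2, with 38.5, 39.2 and 47.7 CPM at 50 MPa (log2 fold change 0.92, SE 0.30, unadjusted p = 0.0060, adjusted p = 0.072), Isg15, with 1.84, 1.007 and 5.40 CPM (log2 fold change 2.63, SE 0.89, unadjusted p = 0.0082, adjusted p = 0.083), and Usp18, with 2.04, 2.15 and 3.00 CPM (log2 fold change 1.55, SE 0.54, unadjusted p = 0.010, adjusted p = 0.094). The control values of Isg15 came from few counts. The groups did not overlap, with 50 MPa above control, for 15 of 40 genes, as for 8.20% of all genes. Those 15 were Ifitm1, Ifitm2, Ifitm3, Ifih1, Zbp1, Oas1a, Oasl2, Mx2, Isg15, Usp18, Gbp2, Psmb8, B2m, H2-K1 and H2-D1.

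The 2 calls depended on single libraries. None of the 40 passed without hip cap control 3 (the only unstranded control), hip cap 50 MPa 3 or metatarsal 50 MPa 3, 1 passed on leaving out each of 13 other libraries in turn, and 3 without hip cap control 2 or hip cap 5 MPa 3. None passed in the hip caps of run 1 alone or with all 24 libraries in the fit. Hip cap 50 MPa 2, which was left out, had 28.9 CPM of B2m and 6.81 CPM of Ifitm3, below the 3 others of its pressure. Hip cap control 4, also left out, had 219 CPM of B2m and 111 CPM of Ifitm3, above each hip cap at 50 MPa. In hip cap control 3 and the 3 hip caps at 50 MPa, all unstranded and of run 1, B2m had 12.1 CPM in the control and 86.2, 106 and 90.5 CPM under pressure, and Ifitm3 7.01 CPM and 39.5, 36.1 and 36.9 CPM. Macrophage markers summed to 122 to 355 CPM in controls, 139.9 to 823 at 5 MPa and 192 to 363 at 50 MPa. Without Lyz2 the sum of the 14 others did not overlap between controls (43.2 to 86.2 CPM) and 50 MPa (113 to 153 CPM). Of all 15, however, only 8 had a positive log2 fold change at 50 MPa, with a median of 0.04. Among them 2 were called higher and 0 lower, where 3.51% and 1.97% of all genes were. Osteoclast markers summed to 319 to 515 CPM in controls, 529 to 1653 at 5 MPa and 535 to 1672 at 50 MPa. Chondrocyte markers summed to 52987 to 84375 CPM in controls and 35467 to 40984 CPM at 50 MPa. The part of these cells in B2m and Ifitm3 was not tested.

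**Figure D5:**
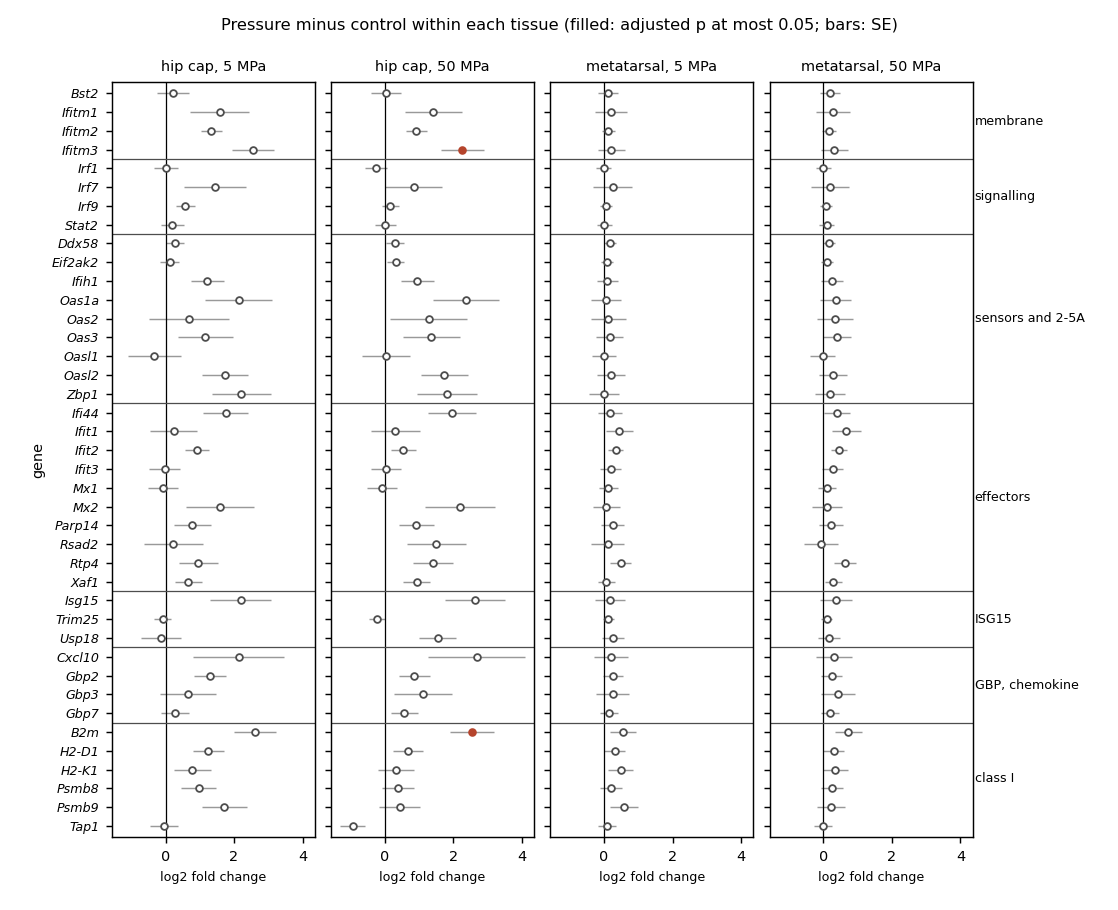
Log2 fold change of pressure over control (horizontal axis) for each of the 40 genes in hip caps and metatarsals at 5 and 50 MPa, with bars of 1 SE; filled points had an adjusted p at or below 0.05. The 2 filled points are Ifitm3 and B2m in hip caps at 50 MPa, and the metatarsal points lie close to 0 with short bars.

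In metatarsals none of the 40 genes passed by edgeR at 5 MPa or at 50 MPa, and none had an unadjusted p below 0.05 at either pressure. Over all genes tested 0 passed, or 0% at each, although 733 had an unadjusted p below 0.05 at 5 MPa and 873 at 50 MPa, and DESeq2 called 14 and 10 genes, none of them among the 40. The log2 fold changes of the 40 ranged from -0.01 to 0.58 at 5 MPa, with a median of 0.17, and from -0.06 to 0.73 at 50 MPa, with a median of 0.24. No member separated the pressure group from control, which 1.64% of all genes did above and 1.25% below at 5 MPa, and 2.41% above and 2.10% below at 50 MPa. The 5 genes with the smallest p-values at 50 MPa were Ifit2 (log2 fold change 0.45, SE 0.23), Rtp4 (0.62, SE 0.32), B2m (0.73, SE 0.39), Ifit1 (0.67, SE 0.42) and Xaf1 (0.29, SE 0.25). At 5 MPa they were Rtp4 (0.48, SE 0.31), Ifit2 (0.33, SE 0.22), B2m (0.56, SE 0.38), Psmb9 (0.58, SE 0.41) and H2-K1 (0.49, SE 0.36). The adjusted p of each of these genes was 1. B2m had 244, 241, 167 and 119 CPM in controls, 265, 261, 217 and 213 CPM at 5 MPa and 233, 192, 316 and 236 CPM at 50 MPa, with overlap at each step.

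Whether the tissues responded differently was tested as an interaction, the change in hip caps minus the change in metatarsals. None of the 40 genes passed at 5 MPa, where 0.0188% of all genes did, or at 50 MPa, where 0.442% did. At an unadjusted p below 0.05 there were 8 genes at 5 MPa (20%, against 11.9% of all genes tested). At 50 MPa there were 7 (17.5%, against 19.0% of all genes). DESeq2 called 2 of the 40 at each pressure, and its share over all genes is not given here. At 5 MPa the smallest p-values were those of Ifitm2 (log2 fold change 1.22, SE 0.33, unadjusted p = 0.0013, adjusted p = 0.24), Ifitm3 (log2 fold change 2.36, SE 0.65, unadjusted p = 0.0022, adjusted p = 0.26), B2m (2.05), Zbp1 (2.21) and Ifi44 (1.58). At 50 MPa they were those of Ifitm3 (log2 fold change 1.94, SE 0.65, unadjusted p = 0.0084, adjusted p = 0.13), B2m (log2 fold change 1.81, SE 0.64, unadjusted p = 0.012, adjusted p = 0.14), Isg15 (2.27), Ifitm2 (0.76) and Usp18 (1.39). Without hip cap control 2, 2 genes passed at each pressure. A difference between tissues in the response of these genes was therefore not shown.

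The 2 left-out libraries differed from their groups in different genes. Hip cap control 4 was above controls 1 to 3 for 30 of 40 genes, as for 32.6% of all genes tested, and above all 10 hip caps in the fits for 24, as for 21.2%. It had 263 CPM of H2-D1, 176 CPM of H2-K1, 24.3 CPM of Psmb8 and 38.6 CPM of Gbp2, while Ifit1 had 3.89 CPM and Cxcl10 had 0 counts. Its osteoclast marker sum was 4625 CPM and its chondrocyte marker sum 10316 CPM, outside the hip cap ranges given above. Hip cap 50 MPa 2 was above all 10 hip caps in the fits for 21 of 40 genes, as for 36.2% of all genes, and below them for 4, as for 27.9%. Among the high ones were antiviral genes, with 20.7 CPM of Ifit1, 6.51 CPM of Oas2 and 5.90 CPM of Mx2, whereas H2-D1 had 36.9 CPM and H2-K1 25.9 CPM. Its sums of lymphocyte markers (52.97 CPM, against 1.80 to 18.1 in the hip caps of the fits), dendritic cell markers (42.5 against 18.3 to 31.9) and skeletal muscle markers (139 against 32.3 to 82.7) also lay above those of all 10. The part of any of these in its levels was not tested.

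Other genes of the pathway were counted from lists. Of 49 other interferon-induced genes 47 were tested, and in controls 36 were lower and 3 higher in hip caps. Over all genes tested 16.4% were lower and 14.6% higher in controls. At 5 MPa 33 of the list were lower and 2 higher (19.2% and 18.9% of all genes), and at 50 MPa 31 were lower and 2 higher (9.87% and 10.6%). In controls the largest differences were those of Iigp1, an immunity-related GTPase (log2 fold change -7.86, SE 0.77, adjusted p = 3.3e-07), Ifit1bl1 (log2 fold change -6.87, SE 2.14, adjusted p = 0.016) and Gbp9 (log2 fold change -6.37, SE 0.93, adjusted p = 4.7e-05). Iigp1 had 0, 0.308 and 0.0922 CPM in hip cap controls and 48.8, 45.6, 24.9 and 9.27 CPM in metatarsal controls. In hip caps at 50 MPa 3 of the 47 were higher than in controls, where 3.51% of all genes were, all of them immunity-related GTPases: Iigp1 (log2 fold change 4.13, SE 0.98, adjusted p = 0.024), Ifi47 (log2 fold change 2.59, SE 0.63, adjusted p = 0.024) and Irgm2 (log2 fold change 2.16, SE 0.44, adjusted p = 0.015). Irgm2 had 4.70, 5.37 and 6.00 CPM at 50 MPa against 2.11, 2.77 and 0.738 CPM in controls, and hip cap control 4 had 10.4 CPM. Iigp1 had 1.53, 2.35 and 0.2998 CPM against 0, 0.308 and 0.0922 CPM, values of few counts that overlapped. Ifi47 had 1.23, 1.48 and 0.899 CPM against 0.263, 0.462 and 0.184 CPM, the latter from 1, 3 and 2 counts. For all 3 genes hip cap control 4 was above each 50 MPa library in the fit, with 6.61 CPM of Iigp1 and 6.34 CPM of Ifi47. None of the list passed at 5 MPa in hip caps or at either pressure in metatarsals by edgeR.

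Of 30 interferon, receptor and signalling genes 21 were tested. In controls 3 were lower in hip caps, among them the feedback inhibitors Socs1 (log2 fold change -1.98, SE 0.49, adjusted p = 0.0040) and Socs3 (log2 fold change -1.03, SE 0.35, adjusted p = 0.028), and 5 were higher (16.4% and 14.6% of all genes). None of the receptor subunit genes was called lower in hip caps: Ifnar1 had 44.2, 41.0 and 42.4 against 41.2, 48.3, 53.3 and 55.5 CPM and Ifngr1 28.4, 23.3 and 31.5 against 17.6, 17.1, 17.3 and 17.1 CPM, the latter significantly higher in hip caps (log2 fold change 0.78, SE 0.23, adjusted p = 0.015). The interferon genes themselves were barely detected. The 9 listed (Ifna1, Ifna2, Ifna4, Ifnb1, Ifne, Ifng, Ifnk, Ifnl2 and Ifnl3) had 0 to 8 counts together in each of 23 libraries and 49 in hip cap 50 MPa 2, of which 22 were of Ifnl2. At 50 MPa in hip caps Ptpn2 was higher (log2 fold change 1.01, SE 0.24, adjusted p = 0.024) and Irf3 lower (log2 fold change -0.70, SE 0.18, adjusted p = 0.032) than in controls.

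Of 18 nucleic acid sensing genes, all tested, 5 were lower and 1 higher in hip cap controls, against the same 16.4% and 14.6%. Dhx58, which encodes LGP2 and is also counted among the interferon-induced genes, was lower (log2 fold change -1.75, SE 0.50, adjusted p = 0.012), as was Tmem173, which encodes STING (log2 fold change -1.37, SE 0.50, adjusted p = 0.044). Of 24 other antigen presentation genes 6 were higher and 2 lower in hip cap controls (14.6% and 16.4% of all genes), and 13 were higher and 2 lower at 5 MPa (18.9% and 19.2%). In controls the largest were the class II genes H2-DMb1 (log2 fold change 5.12, SE 0.80, adjusted p = 7.0e-05) and H2-Ab1 (log2 fold change 3.52, SE 0.79, adjusted p = 0.0028) and the chaperone gene Calr (log2 fold change 1.63, SE 0.29, adjusted p = 0.00020). H2-Ab1 had 34.0, 22.7 and 23.6 CPM in hip caps and 2.41, 3.47, 2.88 and 0.523 CPM in metatarsals. Hip cap control 4, left out of the fits, had 7.02 CPM. Of the other class II genes listed, H2-DMa was called higher, and Cd74, H2-Aa, H2-Eb1 and Ciita were not called in controls. Class II genes are known from professional antigen-presenting cells, and dendritic cell markers summed to 18.3 to 31.9 CPM in hip caps and 6.12 to 11.6 CPM in metatarsals. Macrophage markers are given above. In controls Zbtb46 was the largest part of the dendritic cell sum. There 4 of the 6 tested dendritic cell markers had a positive log2 fold change, 2 of them called, Flt3 and Xcr1 were not among the 4, and Ccr7 had no count in the hip cap controls of the fit. The part of those cells in the difference of the called class II genes was not tested.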

How the data were processed

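RNA was sequenced from 24 libraries of hip caps and metatarsals. Per the labels and the study's methods, the authors trimmed reads with Trim Galore 0.6.5, quantified transcripts with kallisto and summed them to genes. The processing notes name build GRCm39. The estimated counts the authors deposited were rounded to whole numbers here. Rows with an identifier but no symbol stayed in the fit.

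Genes passing edgeR's filterByExpr over the 6 groups (21283 of 52178) were scaled by TMM and fitted with edgeR 4.0.16 (quasi-likelihood, robust) on 22 libraries, with group, sequencing run and library type as terms. The run was read from the colour strip of the study's clustering figure and is uncertain. Its split of libraries differs from the kit numbers in the methods. P-values were adjusted over all genes by the Benjamini-Hochberg method and called at 0.05. Fold changes came from the fit at edgeR's default prior count, so those of genes with few counts were little damped. A prior count of 2 was used only for log levels in the checks of GC content and replicate numbers. On simulated data with the 50 MPa hip cap design, 25.0% of genes changed 2-fold and 77.0% of those changed 4-fold were recovered. The changed genes were drawn from those with a mean above 2 CPM, and no effect of run or library type was simulated. Recovery of genes with few counts was therefore not measured.

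Members and lists were chosen with earlier results of these data known. Members could be named freely. Log2 fold changes with tests were given for called members or, where fewer than 5 were called, for the 5 with the smallest p, and for up to 3 called genes of each other list. Some genes of those lists are not reported here. Shared 31-base words were counted in GENCODE transcripts of build GRCm38. Intervals cover counting error only.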

Additional observations from a re-analysis of the deposited data

Results flagged for a closer look

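In each group of 4 libraries the log2 level of each gene was checked for a value far from the others, with a gap, relative to the range, above Dixon's 95% critical value. Of 160 such groups 6 stood out, and chance alone flags about 5% of groups. Metatarsal 50 MPa 2 was low for Gbp3 (17.6 CPM, against 31.1 to 33.2 CPM in the others), Irf9 (34.2 against 42.9 to 43.8 CPM) and Stat2 (56.9 against 82.8 to 84.9 CPM). Metatarsal control 4 had 1.57 CPM of Oas1a, where the other controls had 9.57 to 11.2 CPM. Metatarsal 5 MPa 4 had 1.89 CPM of Ifitm1, where the others had 3.22 to 3.56 CPM. Hip cap 5 MPa 3 was high for Irf7, at 6.39 CPM against 1.89 to 2.08 CPM.

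Both libraries kept out of the fits held values of these genes beyond the 10 hip caps in them. Hip cap control 4 was above all 10 for 24 of the 40 genes (21.2% of all genes tested) and hip cap 50 MPa 2 for 21 (36.2%).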

How the results depend on the processing

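The counts of called genes between tissues moved by under 1.5 times under every alternative tried except 1. In the 5 MPa comparison 29 of 33 calls held in all 31 settings, in controls 25 of 32 held in all 30, and at 50 MPa 14 of 31 did. Leaving out 1 library at a time gave 28 to 33 calls in controls, 31 to 34 at 5 MPa and 15 to 33 at 50 MPa, the lowest without metatarsal 50 MPa 4. In metatarsals every setting gave 0 calls at both pressures. The pressure counts in hip caps were less stable. At 50 MPa (2 genes) there were 0 without a filter on low counts, with all 24 libraries, with library type alone as a batch term, with a trend in GC content removed, in the hip caps of run 1 alone and in hip caps alone with library type, 4 without batch terms and 5 by DESeq2, and 0 to 3 when 1 library was left out. At 5 MPa (0 genes) there were 4 without batch terms, 4 with library type alone and 3 by DESeq2, and 0 to 3 when 1 library was left out. DESeq2 called 2 genes in the interaction at 5 MPa and 2 at 50 MPa, and leaving out 1 library gave 0 to 2 at each. With all 24 libraries the log2 fold change reversed for Ifitm2 (-0.13), Ifitm3 (-0.057), Gbp2 (-0.48) and H2-D1 (-0.16) in hip caps at 5 MPa, for Ifitm2 (-0.19) at 50 MPa, and in the interaction for Zbp1 at 5 MPa (-0.20) and Ifitm2 at 50 MPa (-0.27). The cause of these moves was not tested. Replicate numbers are shared between groups. Residuals of equally numbered libraries correlated from -0.37 to 0.35 over 50 pairs, with a median of 0.014. Unequally numbered libraries were not compared, so these values cannot show whether the numbers mark pairs. The model of the paper had no term for pairs, and the main fits had none. With a replicate block the hip cap counts were 4 for 5 MPa and 3 for 50 MPa, and those between tissues 32, 33 and 32. Depth limits the low genes: hip cap controls held as few as 2 counts in all of Cxcl10.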
